A study of Rattus norvegicus with 28 samples.

Results

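The genes described here encode the RNA polymerase II (Pol II) machinery that starts transcription of protein-coding genes. They were taken from the expression table by symbol, as every Polr2a to Polr2l, every Med or Taf symbol with a number, and every Gtf2a, Gtf2b, Gtf2e, Gtf2f and Gtf2h symbol. The pattern found 76 of 30178 symbols. By known function these were 11 Pol II subunits, 30 Mediator subunits, 16 TFIID genes, 7 genes with a TAF name that belong to other complexes, and 12 general transcription factors. The set was therefore wider than polymerase, Mediator and TFIID alone. Polr2l, Gtf2a2 and Taf3 were not analysed here.

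Pol II is a multisubunit enzyme whose largest subunit, Polr2a, holds much of the catalytic centre together with Polr2b and carries the C-terminal repeats that kinases phosphorylate during transcription. TFIID, made of the TATA-binding protein and its associated factors (TAFs), recognises core promoters, and TFIIA, TFIIB, TFIIE, TFIIF and TFIIH then help to place and open the polymerase. Mediator bridges DNA-bound activators and the polymerase through its head, middle and tail, and a separable kinase module controls that contact.

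The cells were NRK-49F, a fibroblast line from rat kidney that was held in 0.2% serum for 24 h before treatment. Of 28 samples in the series, 8 RNA-seq libraries of polyadenylated RNA were used, and 20 chromatin immunoprecipitation and input samples were not analysed here. The labels put 2 libraries in each of 4 groups: TGF-β with methionine restriction (MetR), TGF-β with an siRNA against Hoxc8 (siHoxc8), TGF-β alone, and control. The groups with TGF-β were labelled 48 h and received TGF-β1, a profibrotic cytokine, at 5 ng per μL as the labels print it. Methionine was 30 μM in MetR medium and 200 μM in the matching control medium. For the RNA-seq libraries the labels name no control siRNA, although some of the chromatin samples are labelled siControl. Loss of Hoxc8 and receipt of an siRNA therefore cannot be told apart here. The RNA-seq labels also name no time for the control group and no separate cultures, so p-values measure the spread between libraries, which may be technical. All cells are 1 line in 1 laboratory model, and in bulk RNA fewer cells with a transcript and less transcript per cell cannot be told apart.

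Values were the authors' FPKM (fragments scaled by gene length and library depth), and the files gave 1 value per gene and library. Whole reads could be recovered from the steps between low values, giving 15118113 to 20146870 reads per library. Hoxc8, the siRNA target, had 0.463 and 0.0771 FPKM (15 and 3 reads) with siHoxc8 and 0.417 and 0.614 FPKM with MetR, against 4.32 and 5.01 FPKM with TGF-β and 1.12 and 1.34 FPKM in control. Of 9 fibroblast markers measured, 7 were tested, and their summed level was 7650 to 11920 FPKM with MetR, 12570 to 13060 with siHoxc8, 14160 to 14410 with TGF-β and 7897 to 7925 in control. The sum rested mostly on Col1a1, Vim and Fn1, and with siHoxc8 also on Col3a1. Single markers differed: with siHoxc8 relative to TGF-β, Col3a1 (2588 and 2785 FPKM, against 367 and 374 FPKM) and Pdgfra (49.4 and 47.8 FPKM, against 8.24 and 8.60 FPKM) were higher and Vim (1992 and 2042 FPKM, against 5256 and 6204 FPKM) was lower. Thy1 was at 0 in every library and Dcn was at most 1.08 FPKM. Epithelial Epcam and Umod were at 0 and Cdh1 was at most 0.105 FPKM, while Krt8 was 646 to 685 FPKM with siHoxc8 and 194 to 252 FPKM elsewhere. Cdh16 was 2.53 and 2.76 FPKM with MetR and at most 0.106 FPKM elsewhere, and Aqp1 was at most 0.808 FPKM in the groups with TGF-β, against 3.21 and 3.26 FPKM in control. All 5 endothelial markers and 5 of 6 leukocyte markers stayed under 1 FPKM. Whether these marker differences have a part in the results below was not tested.

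The promoters of 4 members are shown because the results turn on these genes: Polr2a and Med29 fell with MetR, Taf1c rose with it, and Med16 moved in all 3 comparisons with or within TGF-β. Polr2a and Med16 were chosen for this after their values were seen. The rule for promoters took Taf1c as the called rise with TGF-β relative to control. It also named Med18 and Taf15, and Polr2c was sought as well, but no window of 300 bases was available for them. Each window runs from 250 bases before to 50 after the annotated start, from RefSeq on GRCr8, at chr10:54977130-54977429 (minus strand), chr7:10449049-10449348 (plus strand), chr19:64567550-64567849 (minus strand) and chr1:92810859-92811158 (minus strand). Capitals mark matches, on either strand and allowed to overlap, to the CCAAT box (CCAAT), the GC box (GGGCGG), the TATA box (TATAAA), the NRF1 motif, an ETS motif (CCGGAAG) and a YY1 motif (AAGATGGCG).
Polr2a: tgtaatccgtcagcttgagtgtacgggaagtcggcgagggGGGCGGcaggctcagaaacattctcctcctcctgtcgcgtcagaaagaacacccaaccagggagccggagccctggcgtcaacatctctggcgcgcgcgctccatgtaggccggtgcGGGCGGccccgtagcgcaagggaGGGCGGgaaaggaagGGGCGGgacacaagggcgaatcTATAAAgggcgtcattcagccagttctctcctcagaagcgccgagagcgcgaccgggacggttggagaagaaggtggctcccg
Med16: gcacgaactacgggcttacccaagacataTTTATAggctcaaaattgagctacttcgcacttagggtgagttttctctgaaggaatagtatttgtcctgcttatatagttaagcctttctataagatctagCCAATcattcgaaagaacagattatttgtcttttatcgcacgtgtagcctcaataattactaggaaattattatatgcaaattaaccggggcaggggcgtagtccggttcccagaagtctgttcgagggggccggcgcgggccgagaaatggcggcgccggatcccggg
Taf1c: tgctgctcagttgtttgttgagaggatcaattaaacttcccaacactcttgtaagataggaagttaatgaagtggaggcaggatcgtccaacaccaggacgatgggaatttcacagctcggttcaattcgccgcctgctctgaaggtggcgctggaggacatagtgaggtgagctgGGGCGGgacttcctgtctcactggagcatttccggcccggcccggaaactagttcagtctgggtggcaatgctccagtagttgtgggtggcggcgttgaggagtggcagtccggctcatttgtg
Med29: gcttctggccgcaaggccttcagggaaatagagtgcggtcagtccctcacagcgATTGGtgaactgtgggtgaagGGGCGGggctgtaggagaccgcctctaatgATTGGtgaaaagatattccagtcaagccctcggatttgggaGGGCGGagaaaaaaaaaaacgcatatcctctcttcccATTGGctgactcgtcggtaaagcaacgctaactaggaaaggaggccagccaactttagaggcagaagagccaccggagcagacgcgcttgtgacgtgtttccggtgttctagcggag
The Polr2a window held 4 GC boxes and a TATA box that begins at -33 from the start. The Med29 window held 3 CCAAT boxes and 2 GC boxes, that of Taf1c held 1 GC box, and that of Med16 held 1 CCAAT box and a TATA box read on the opposite strand, far from the start. Promoters were in the table for 63 members. Of these 73% held a GC box, 27% the ETS motif and 11.1% the YY1 motif, against 33.1%, 8.75% and 1.73% of all 33469 promoters of the same length. The CCAAT box was in 41.3% of member promoters and 37.5% of all, the NRF1 motif in 3.17% and 0.852%, and the TATA box in 7.94% and 14.2%. For members 1 promoter per symbol was counted, while all promoters were counted as listed, whether or not their gene was tested here. The shares thus refer to unlike sets, and none was computed for the tested genes alone. A higher share therefore cannot be read as a trait of the members. All of these are matches of letters and do not show binding.

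Of the 76 members, 74 were above 0 in at least 1 library, and 70 passed the filter of at least 1 FPKM in at least 2 libraries. Their mean levels ran from 0.818 to 144 FPKM with a median of 17.5 FPKM, against a median of 12.8 FPKM over all 12315 genes that passed. Fits used limma on log2(FPKM + 1), so changes of low genes are understated, and a gene was called at a Benjamini-Hochberg adjusted p under 0.05 over all genes tested.

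With MetR under TGF-β, 37 of 70 members rose and 6 fell relative to TGF-β alone. Over all genes tested 34.8% rose and 19% fell. The median change of the members was 0.49 on the log2 scale, against 0.18 for all genes. With siHoxc8 under TGF-β, 31 members rose and 2 fell, where 28.1% and 15.7% of all genes did, and the medians were 0.37 and 0.13. With TGF-β against control, 1 member rose and 15 fell, where 10.3% and 28.6% of all genes did, so the fall was no more common among members than elsewhere, and the medians were -0.17 and -0.19. The 3 comparisons share the TGF-β libraries, so they do not add up as separate evidence.

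The median of all genes was thus itself away from 0 in each comparison (0.18, 0.13 and -0.19), and scalings that set it near 0 changed the counts. After median ratio rescaling, 28 members rose and 8 fell with MetR, 20 rose and 5 fell with siHoxc8, and 8 rose and 2 fell with TGF-β. Of all 12315 genes tested, 3136 rose and 3281 fell with MetR under that scaling, and 2574 and 2743 with siHoxc8. With TGF-β, 2350 of all genes rose and 2092 fell. Quantile normalization gave 25 rises and 8 falls with MetR, 22 and 5 with siHoxc8, and 8 and 5 with TGF-β, and removing each library's length trend gave 33 and 8, 22 and 5, and 9 and 5. In the same order, all genes gave 3290 and 3072, 2723 and 2677, and 2079 and 2102 after quantile normalization. With the length trend removed they gave 3363 and 3196, 2761 and 2765, and 2362 and 2078. After median ratio rescaling the member medians were 0.29 with MetR, 0.22 with siHoxc8 and 0.04 with TGF-β, beside medians of all genes of -0.004, -0.0106 and 0.0096. Under all 3 other scalings, 23 of the 37 rises and 6 of the 6 falls with MetR were called, as were 20 of 31 rises and 2 of 2 falls with siHoxc8. With TGF-β, Taf1c among rises and Med16 and Taf15 among falls were called under all 3. The counts also depended on single libraries. The 31 rises with siHoxc8 became 18 without TGF-β replicate 1, 10 without siHoxc8 replicate 1 and 15 without siHoxc8 replicate 2, and its 2 falls ranged from 0 to 6 over the 8 libraries. The 1 rise with TGF-β became 2 without TGF-β replicate 1, 6 without either MetR library and 0 without any of the others. Of the falls with TGF-β, 2 were called without control replicate 1, 3 without control replicate 2, 8 without either siHoxc8 library, 9 without TGF-β replicate 2 and 23 without either MetR library.

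**Figure D1:**
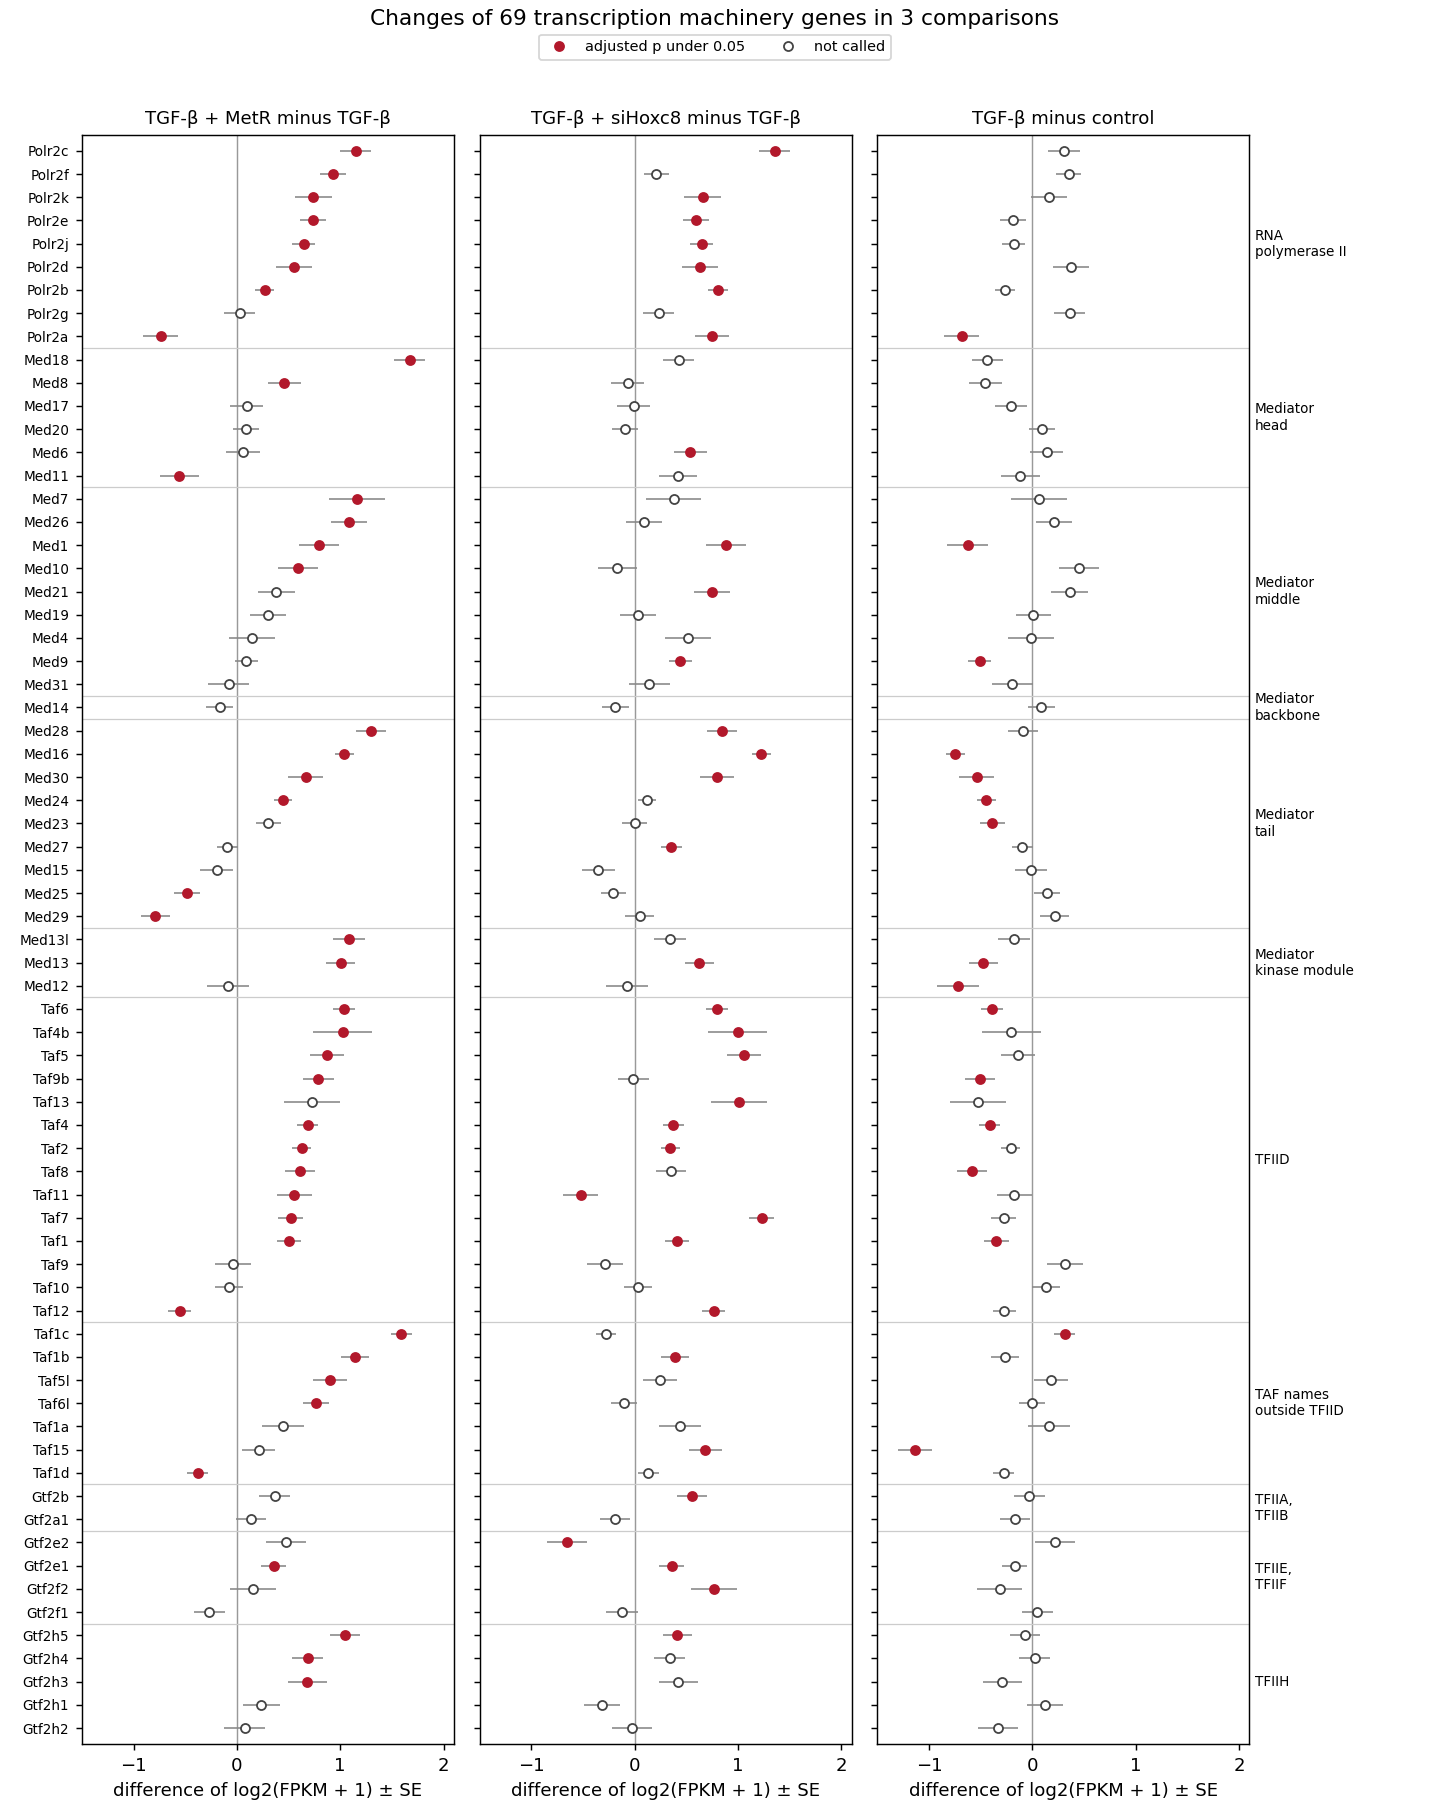
Change of 69 members in 3 comparisons on the log2(FPKM + 1) scale, with the standard error; filled points passed an adjusted p under 0.05. With MetR (left) and siHoxc8 (middle) most filled points lie right of 0, while Polr2a lies left of 0 with MetR at -0.74 and right of 0 with siHoxc8 at 0.75; Polr2i is left out because it was near 0 in most libraries.

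Polr2a fell with MetR while most other polymerase subunits rose, but with siHoxc8 it rose together with most of them. It had 25.2 and 18.9 FPKM with MetR, 64.3 and 61.7 FPKM with siHoxc8, 42.7 and 32.2 FPKM with TGF-β, and 60.1 and 60.3 FPKM in control. The 4 groups did not overlap, siHoxc8 and control lay close together, and MetR was lowest. It fell with MetR relative to TGF-β (log2 change -0.74 ± 0.17 SE, limma adjusted p = 0.00777) and rose with siHoxc8 relative to TGF-β (0.75 ± 0.17, limma adjusted p = 0.00947). The direct contrast of siHoxc8 with MetR was 1.49 ± 0.17 (limma adjusted p = 0.000308).

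The fall with MetR passed in every alternative run, with adjusted p from 0.000573 to 0.0465. The rise with siHoxc8 was lost without TGF-β replicate 2 (limma adjusted p = 0.0547) or siHoxc8 replicate 1 (limma adjusted p = 0.0588). With TGF-β against control Polr2a fell by 0.68 on the log2 scale (SE 0.17, limma adjusted p = 0.0159), a call lost after median ratio rescaling (0.0867), without TGF-β replicate 2 (0.0867) and without either control library (0.0828 and 0.0811). With MetR against control the change was -1.42 ± 0.17 (limma adjusted p = 0.000324), and with siHoxc8 against control it was 0.06 and did not pass (limma adjusted p = 0.776).

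Polr2b, the second largest subunit and partner of Polr2a in the active centre, had 28.0 and 31.4 FPKM with MetR, 42.8 and 44.1 FPKM with siHoxc8, 23.9 and 25.0 FPKM with TGF-β, and 29.3 and 29.8 FPKM in control. The siHoxc8 libraries were above all others and the MetR libraries straddled control. It rose with siHoxc8 relative to TGF-β (0.81 ± 0.09, limma adjusted p = 0.000586) and stood above MetR as well (0.54 ± 0.09, limma adjusted p = 0.00242), under every alternative run. Its small rise with MetR (0.27 ± 0.09, limma adjusted p = 0.0443) was lost under 12 of the alternatives, among them every other scaling (limma adjusted p = 0.595 to 0.781), the replicate block (0.0514), and leaving out any library but MetR replicate 1 (0.0723 to 0.127).

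Polr2c, which helps to assemble the enzyme, had the largest change among called subunits both with MetR and with siHoxc8 relative to TGF-β. It had 41.4 and 55.0 FPKM with MetR and 53.2 and 57.3 FPKM with siHoxc8, against 20.2 and 21.6 FPKM with TGF-β and 15.3 and 18.3 FPKM in control. The MetR and siHoxc8 libraries were all above the rest. The changes relative to TGF-β were 1.15 ± 0.15 with MetR (limma adjusted p = 0.000734) and 1.36 ± 0.15 with siHoxc8 (limma adjusted p = 0.000464), both called under every alternative run.

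Polr2e, Polr2f and Polr2k are shared with RNA polymerases I and III, and with Polr2d and Polr2j they were looked at after their values were seen. Polr2f had 159 and 158 FPKM with MetR, 90.4 and 101 FPKM with siHoxc8, 74.2 and 92.1 FPKM with TGF-β, and 62.1 and 67.2 FPKM in control. The MetR libraries were above all others, the siHoxc8 libraries overlapped TGF-β, and control was below TGF-β. It rose with MetR (0.93 ± 0.12, limma adjusted p = 0.000771), did not pass with siHoxc8 (0.21, limma adjusted p = 0.208), and was lower with siHoxc8 than with MetR (-0.72 ± 0.12, limma adjusted p = 0.00209). Polr2e rose by 0.74 with MetR and 0.59 with siHoxc8, and Polr2j by 0.65 in each, on the log2 scale.

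In all, 7 of 10 tested subunits rose with MetR (Polr2b, Polr2c, Polr2d, Polr2e, Polr2f, Polr2j and Polr2k) and Polr2a fell. With siHoxc8 7 rose, namely Polr2a, Polr2b, Polr2c, Polr2d, Polr2e, Polr2j and Polr2k. Among all genes tested, 34.8% rose and 19% fell with MetR, and 28.1% rose with siHoxc8. The call of Polr2e with siHoxc8 was lost without siHoxc8 replicate 2 (limma adjusted p = 0.0506), and that of Polr2k with MetR without TGF-β replicate 1 (0.0543). With siHoxc8 Polr2k was lost without TGF-β replicate 1 (limma adjusted p = 0.106), siHoxc8 replicate 1 (0.0972) or siHoxc8 replicate 2 (0.0739). Polr2d was called in both comparisons, but not after median ratio rescaling (limma adjusted p = 0.123 with MetR and 0.0549 with siHoxc8). Without TGF-β replicate 1 it was lost in both (0.176 and 0.133), with MetR also without MetR replicate 2 (0.137) or either siHoxc8 library (0.054), and with siHoxc8 also without siHoxc8 replicate 1 (0.0914) or 2 (0.102). Polr2g, which joins Polr2d in the stalk, had values of 62.4 and 81.2 FPKM with MetR, 85.5 and 79.4 FPKM with siHoxc8, 63.1 and 77.5 FPKM with TGF-β, and 53.3 and 55.3 FPKM in control. It passed neither test relative to TGF-β, but was called higher with siHoxc8 than in control, also under all 3 other scalings.

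**Figure D2:**
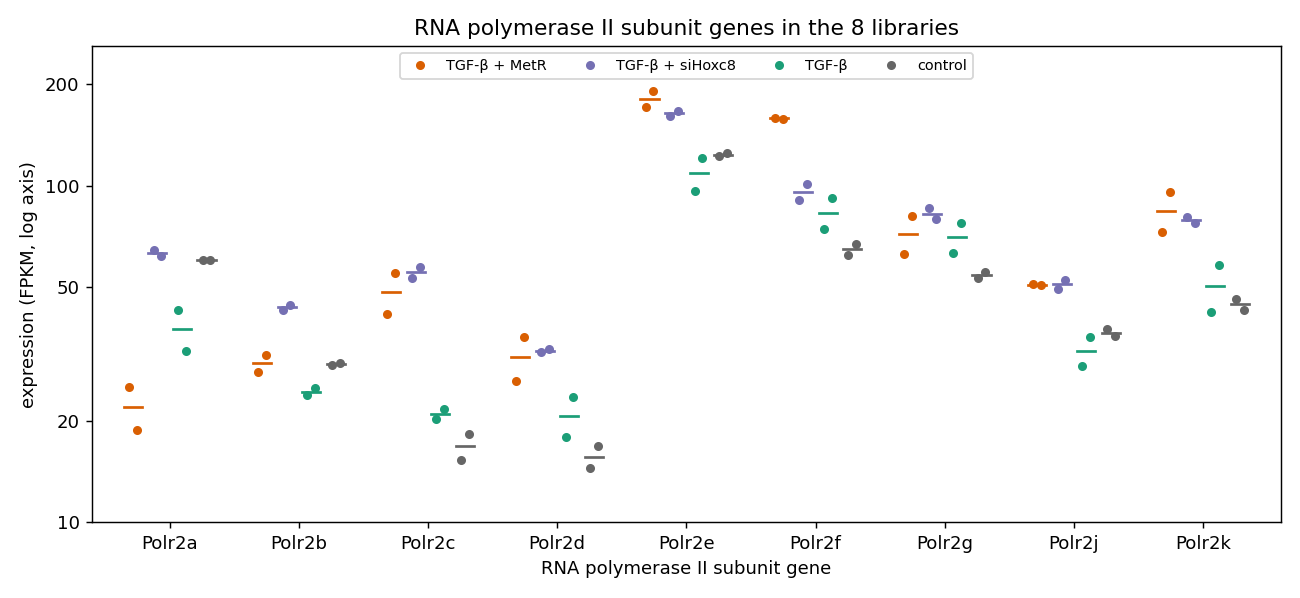
FPKM of 9 Pol II subunit genes on a log axis, 1 point per library and a bar at each group's mean. Polr2a is lowest with MetR (25.2 and 18.9 FPKM), whereas Polr2c, Polr2e, Polr2j and Polr2k lie higher with MetR and siHoxc8 than with TGF-β.

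A ratio of genes within a library is not changed by a single scaling factor per library, although quantile normalization and removal of a length trend can change it. The level of Polr2a over that of Polr2b was 0.902 and 0.600 with MetR, 1.5 and 1.40 with siHoxc8, 1.79 and 1.29 with TGF-β, and 2.05 and 2.03 in control. MetR was lowest and control highest, and siHoxc8 lay within the TGF-β pair. Over Polr2c the ratio was 0.609 and 0.343 with MetR, 1.21 and 1.08 with siHoxc8, 2.11 and 1.49 with TGF-β, and 3.92 and 3.30 in control. Against all 8 other subunits with levels well above 0, the ratio with MetR was below that with TGF-β, and that with TGF-β below control, without overlap. It was above MetR with siHoxc8 for all 8, but relative to TGF-β it was higher for 2 subunits, lower for 1 and overlapping for 5. These 8 ratios share Polr2a, so they are not separate results. Of all genes tested, 26.7% were lower with MetR than with TGF-β without overlap, 52.6% lower with TGF-β than in control, 35.8% higher with siHoxc8 than with MetR, and 47.6% higher and 29.2% lower with siHoxc8 than with TGF-β. These shares refer to levels of single genes, and no such share was computed for ratios between genes.

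**Figure D3:**
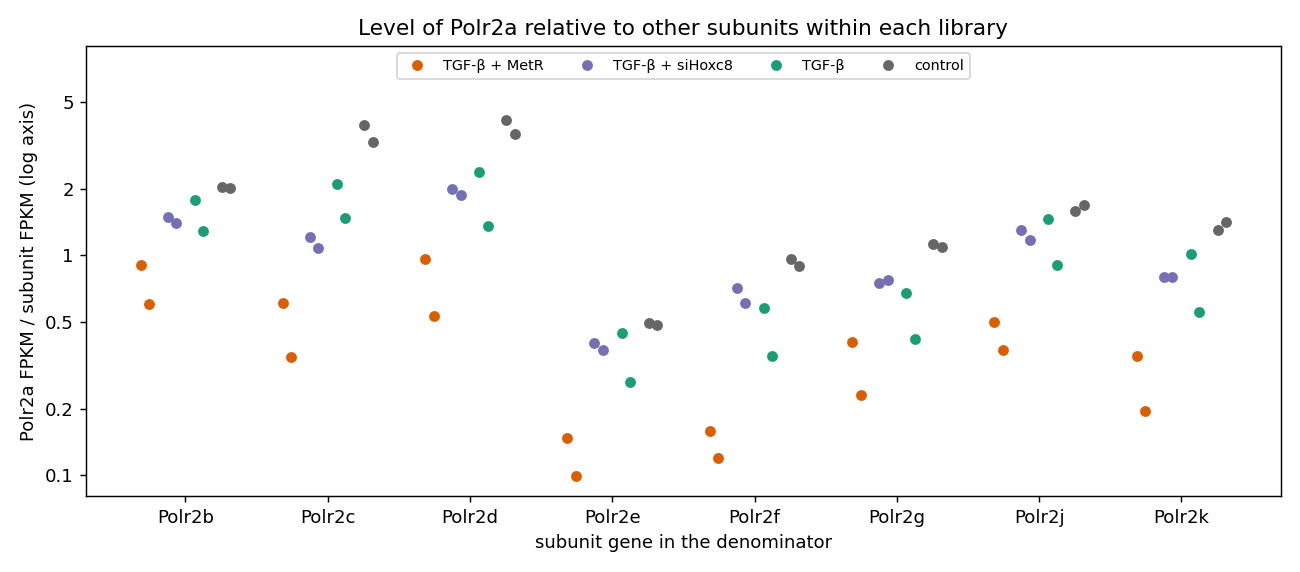
Polr2a FPKM divided by the FPKM of 8 other subunits in the same library, on a log axis, 1 point per library. For every subunit both MetR points lie lowest and both control points highest, with a visible gap between replicates with MetR and with TGF-β.

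The ratios differed between replicates of a group, and so did other long genes. Polr2a has a gene length of 6512 bases, and in TGF-β and MetR it was higher in replicate 1. Across the 70 members, the difference of replicate 1 from replicate 2 on the log2 scale rose with gene length, with a Spearman rank correlation of 0.442 for MetR and 0.682 for TGF-β, against -0.159 for siHoxc8 and 0.022 for control, as a description over genes that share libraries. Over all genes tested the same correlations were 0.114 for MetR, 0.396 for TGF-β, -0.0356 for siHoxc8 and 0.0559 for control. With MetR 58 of 70 and with TGF-β 47 of 70 members were higher in replicate 2. Changes between groups also went with length, at a rank correlation over members of -0.399 with TGF-β relative to control (-0.114 over all genes). Relative to control it was -0.357 with siHoxc8 (-0.056) and -0.191 with MetR (0.036). Relative to TGF-β it was 0.018 with MetR (0.128) and -0.121 with siHoxc8 (0.031). Whether length has a part in these changes was not tested. With the length trend removed from each library, the fall of Polr2a with MetR still passed. That trend was fitted over all genes tested, where replicate differences in MetR and TGF-β followed length less closely than over the members. A trend fitted to the members was not tested. The labels give no RNA quality per library, and its part in these values, Polr2a included, was not tested.

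**Figure D4:**
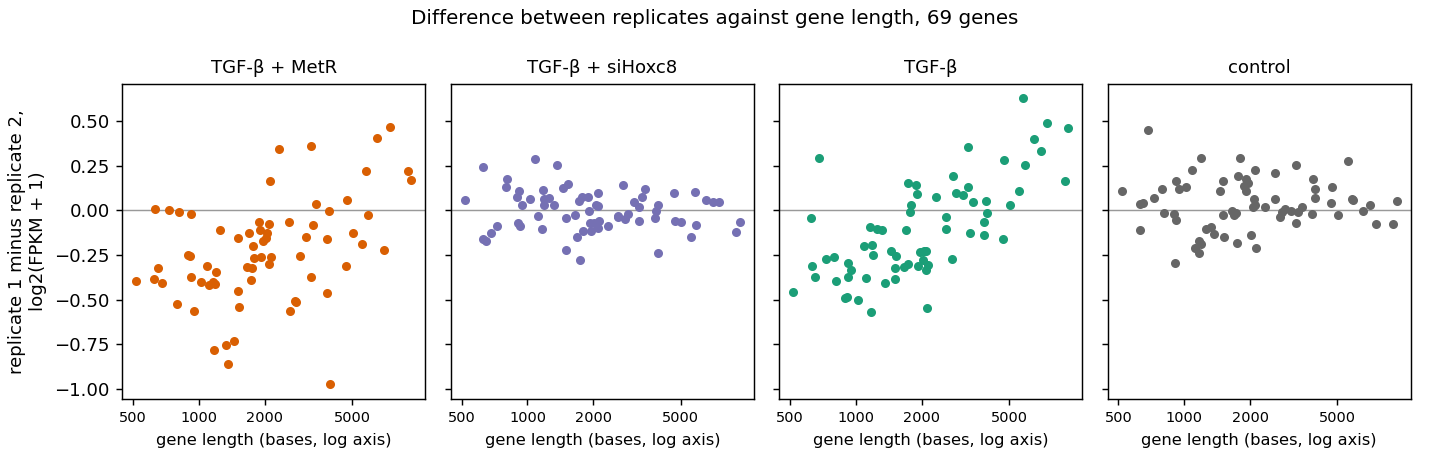
Difference between the 2 replicates of each group on the log2(FPKM + 1) scale, against gene length on a log axis, 1 point for each of 69 members (Polr2i is left out). Points climb with length for TGF-β and MetR, the groups with rank correlations of 0.682 and 0.442, and lie around 0 for siHoxc8 and control.

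Mediator had 28 tested subunits. Of these 12 rose and 3 fell with MetR, 9 rose with siHoxc8, and 8 fell with TGF-β relative to control. Their median changes on the log2 scale were 0.30, 0.24 and -0.11. Over all genes tested, 34.8% rose and 19% fell with MetR, 28.1% rose with siHoxc8 and 28.6% fell with TGF-β, so the Mediator falls with TGF-β (28.6% of 28) were at the share of all genes, and its rises with MetR (42.9%) and siHoxc8 (32.1%) were near it.

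Med16, a tail subunit that receives signals from activators, changed in all 3. It had 20.3 and 20.3 FPKM with MetR and 23.6 and 23.0 FPKM with siHoxc8, against 9.57 and 9.20 FPKM with TGF-β and 16.8 and 16.0 FPKM in control. The 4 groups did not overlap, and TGF-β alone was lowest. It rose with MetR (1.04 ± 0.09, limma adjusted p = 0.000176) and with siHoxc8 (1.23 ± 0.09, limma adjusted p = 9.46e-05) relative to TGF-β, and fell with TGF-β relative to control (-0.75 ± 0.09, limma adjusted p = 0.000885). All 3 calls held under every alternative run.

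Other subunits counted with the tail here, among them the metazoan-specific Med28, Med29 and Med30, went different ways. Med28 had 37.5 and 46.5 FPKM with MetR, 30.4 and 30.0 FPKM with siHoxc8, 14.5 and 18.5 FPKM with TGF-β, and 17.9 and 17.1 FPKM in control, rising by 1.30 with MetR (limma adjusted p = 0.000399) and 0.84 with siHoxc8 (limma adjusted p = 0.00303). Its libraries with MetR and siHoxc8 were all above the rest. Med29 had 17.9 and 18.1 FPKM with MetR, 35.1 and 31.0 FPKM with siHoxc8, 27.6 and 36.7 FPKM with TGF-β, and 27.2 and 27.5 FPKM in control. MetR was below every other group, with a change of -0.79 ± 0.14 (limma adjusted p = 0.00261), and siHoxc8 was above MetR by 0.84 (limma adjusted p = 0.00186). Med25, bound by several activators, fell by 0.48 with MetR (limma adjusted p = 0.0131), a call lost without TGF-β replicate 1 (0.0627) and with those 2 groups fitted alone (0.0736). Med30 rose by 0.80 with siHoxc8 and 0.67 with MetR, and fell by 0.54 with TGF-β; the rise with siHoxc8 was lost without siHoxc8 replicate 1 (limma adjusted p = 0.0513), that with MetR after quantile normalization (0.0632) and without MetR replicate 2 (0.0547), and the fall after median ratio rescaling (0.157) without either control library (0.141 and 0.15), without TGF-β replicate 1 (0.154) and without either siHoxc8 library (0.0667 and 0.0666).

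In the head, which contacts the polymerase, Med18 rose most with MetR. It had 25.3 and 33.4 FPKM with MetR, 12.8 and 10.7 FPKM with siHoxc8, 8.30 and 8.60 FPKM with TGF-β, and 12 and 11.6 FPKM in control. MetR was well above every other group. The change was 1.67 ± 0.15 with MetR relative to TGF-β (limma adjusted p = 0.000186) and -1.24 ± 0.15 with siHoxc8 relative to MetR (limma adjusted p = 0.000405), both under every alternative run. Med11 fell by 0.56 with MetR (limma adjusted p = 0.0371), which was lost without TGF-β replicate 2 (0.202), MetR replicate 1 (0.135) or either siHoxc8 replicate (0.0606).

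In the middle, Med1, which binds nuclear receptors, had 32.7 and 28.0 FPKM with MetR, 33.5 and 31.1 FPKM with siHoxc8, 21.4 and 13.5 FPKM with TGF-β, and 27.4 and 26.2 FPKM in control. TGF-β was the lowest group, and its libraries were far apart. It rose by 0.80 with MetR (limma adjusted p = 0.0106) and 0.89 with siHoxc8 (limma adjusted p = 0.00854), and the call with siHoxc8 was lost without siHoxc8 replicate 1 (0.056), that with MetR after quantile normalization (0.0532). Med26, which is tied to elongation factors, had 7.10 and 10.2 FPKM with MetR, 3.77 and 3.78 FPKM with siHoxc8, 3.28 and 3.70 FPKM with TGF-β, and 3.12 and 2.66 FPKM in control. MetR was above every other group. It rose with MetR (1.08 ± 0.17, limma adjusted p = 0.00164) and was lower with siHoxc8 than with MetR (-0.99 ± 0.17, limma adjusted p = 0.00224). Med7 rose by 1.17 with MetR (limma adjusted p = 0.00847), lost without TGF-β replicate 1 (0.0614). Med9 fell by 0.51 with TGF-β (limma adjusted p = 0.0103), lost without control replicate 1 (0.0944) and after median ratio rescaling (0.0659). Med14, the backbone on which the modules are built, had 5.43 and 4.52 FPKM with MetR, 4.64 and 5.13 FPKM with siHoxc8, 6.09 and 5.31 FPKM with TGF-β, and 5.14 and 5.47 FPKM in control, and passed no test.

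The kinase module was uneven. Med13 had 14.8 and 17.4 FPKM with MetR, 12.3 and 11.9 FPKM with siHoxc8, 8.52 and 6.55 FPKM with TGF-β, and 10.9 and 10.7 FPKM in control, and its paralog Med13l had 37.0 and 32.8 FPKM with MetR, 20 and 21.0 FPKM with siHoxc8, 18.9 and 13.4 FPKM with TGF-β, and 18.5 and 17.8 FPKM in control. For both, MetR was the highest group. With MetR Med13 rose by 1.01 (limma adjusted p = 0.000961) and Med13l by 1.08 (limma adjusted p = 0.00105), both under every alternative run. Med13 also rose by 0.62 with siHoxc8 (limma adjusted p = 0.00956), lost without siHoxc8 replicate 1 (0.0638).

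Med12, which activates the module's kinase, had 8.40 and 5.81 FPKM with MetR, 7.19 and 6.94 FPKM with siHoxc8, 9.05 and 6.15 FPKM with TGF-β, and 12.6 and 13.3 FPKM in control. Control was above all 6 libraries that received TGF-β. Its fall with TGF-β (-0.72 ± 0.20, limma adjusted p = 0.0267) was lost after median ratio rescaling (0.105), without TGF-β replicate 2 (0.141) and without either control library (0.101 and 0.125), and it passed neither with MetR (limma adjusted p = 0.748) nor with siHoxc8 (0.795). Its paralog Med12l was at most 0.00595 FPKM. Of the module's partners outside the symbol pattern, the kinase Cdk19 had 21.0 and 22.0 FPKM with MetR, 14.8 and 14.4 FPKM with siHoxc8, 14.4 and 14.7 FPKM with TGF-β, and 20.5 and 20.5 FPKM in control, rising by 0.53 with MetR (limma adjusted p = 0.00212) and falling by 0.47 with TGF-β (limma adjusted p = 0.00612).

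**Figure D5:**
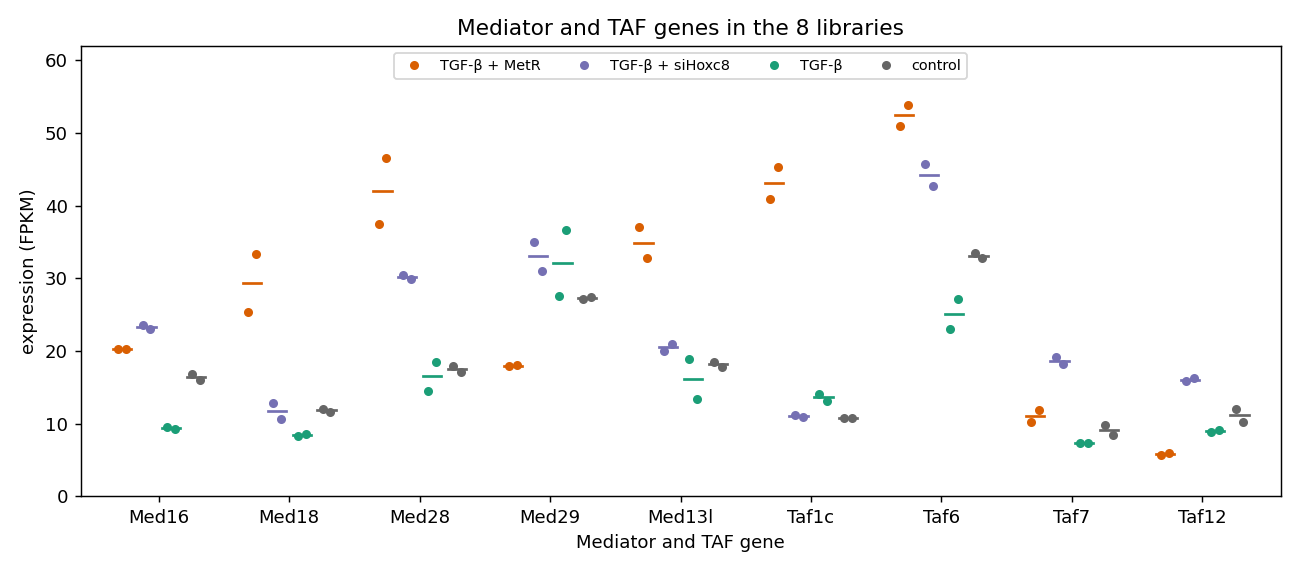
FPKM of 9 Mediator and TAF genes, 1 point per library and a bar at each group's mean. Med16 is lowest with TGF-β (9.57 and 9.20 FPKM), Taf1c and Med18 are highest with MetR, Taf7 is highest with siHoxc8, and Med29 and Taf12 are lowest with MetR.

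TFIID had 14 tested genes, of which 10 rose and 1 fell with MetR, 9 rose and 1 fell with siHoxc8, and 5 fell with TGF-β. The rises were 71.4% of them with MetR and 64.3% with siHoxc8, where 34.8% and 28.1% of all genes rose, and the falls with TGF-β were 35.7%, near the 28.6% of all genes. Only some of these rises were called under all 3 other scalings. They were Taf2, Taf4, Taf5, Taf6 and Taf9b with MetR, and Taf4b, Taf5, Taf6, Taf7, Taf12 and Taf13 with siHoxc8. The share of all genes that keep a rise in this way was not computed. The median changes of the TFIID genes on the log2 scale were 0.62 with MetR, 0.39 with siHoxc8 and -0.28 with TGF-β. Taf1, the largest subunit, had 12.6 and 12.8 FPKM with MetR, 11.5 and 12.2 FPKM with siHoxc8, 9.53 and 7.83 FPKM with TGF-β, and 11.5 and 11.1 FPKM in control. TGF-β was lowest. Its changes of 0.51 with MetR, 0.41 with siHoxc8 and -0.35 with TGF-β passed (limma adjusted p = 0.00848, 0.0254 and 0.0496), but not after median ratio rescaling (limma adjusted p = 0.06, 0.116 and 0.393). The call with TGF-β was also lost without either control library (0.221 and 0.156), TGF-β replicate 2 (0.193) or either siHoxc8 library (0.0932), and that with siHoxc8 without either control library (0.0557 and 0.0556), TGF-β replicate 2 (0.103) or either siHoxc8 library (0.0922 and 0.145).

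Taf7, which binds Taf1 and restrains it, rose most of TFIID with siHoxc8. It had 10.2 and 11.8 FPKM with MetR, 19.1 and 18.1 FPKM with siHoxc8, 7.33 and 7.39 FPKM with TGF-β, and 9.85 and 8.48 FPKM in control. The siHoxc8 libraries were above all others. The rise was 1.23 ± 0.12 with siHoxc8 (limma adjusted p = 0.00027), and siHoxc8 exceeded MetR by 0.71 (limma adjusted p = 0.00198), both under every alternative run. Its rise of 0.52 with MetR (limma adjusted p = 0.00827) was lost after quantile normalization (0.0732) and with the 2 groups fitted alone (0.0586). The testis paralog Taf7l was listed at 0 in all libraries, as was Taf7l2, which RefSeq lists as a pseudogene.

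Taf12, a histone-fold partner of Taf4, went opposite ways with the treatments. It had 5.69 and 5.99 FPKM with MetR, 15.8 and 16.2 FPKM with siHoxc8, 8.91 and 9.16 FPKM with TGF-β, and 12 and 10.3 FPKM in control. MetR was lowest and siHoxc8 highest, with no overlap between groups. It fell with MetR (-0.55 ± 0.11, limma adjusted p = 0.00466), rose with siHoxc8 (0.76 ± 0.11, limma adjusted p = 0.0015), and differed between them by 1.32 ± 0.11 (siHoxc8 minus MetR, limma adjusted p = 9.44e-05), under every alternative run.

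Taf11, the histone-fold partner of Taf13, had 16.0 and 21.7 FPKM with MetR, 8.40 and 8.20 FPKM with siHoxc8, 11.5 and 13.3 FPKM with TGF-β, and 15.7 and 12.6 FPKM in control. siHoxc8 was the lowest group. The difference of siHoxc8 from MetR (-1.08 ± 0.17, limma adjusted p = 0.00135) held under every alternative run. The fall of 0.52 with siHoxc8 relative to TGF-β (limma adjusted p = 0.0384) was lost without any of 6 libraries, namely both of control, TGF-β and siHoxc8 (limma adjusted p = 0.0512 to 0.172). Taf13 rose by 1.01 with siHoxc8 (limma adjusted p = 0.0193), lost without TGF-β replicate 1 (0.122), siHoxc8 replicate 1 (0.106) or siHoxc8 replicate 2 (0.0509). Taf8 fell by 0.58 with TGF-β (limma adjusted p = 0.0162), lost without either control library (0.0964 and 0.0789), without TGF-β replicate 1 (0.0747) and after median ratio rescaling (0.0534).

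Among paralogs, Taf4 had 14.7 and 15.9 FPKM with MetR, 12.1 and 12.1 FPKM with siHoxc8, 9.44 and 8.79 FPKM with TGF-β, and 13.0 and 12 FPKM in control, and Taf4b had 3.79 and 8.42 FPKM with MetR, 5.07 and 6.17 FPKM with siHoxc8, 2.29 and 2.33 FPKM with TGF-β, and 2.97 and 2.66 FPKM in control. The MetR libraries of Taf4b were far apart. Taf4b rose by 1.02 with MetR (limma adjusted p = 0.0182) and 1.00 with siHoxc8 (limma adjusted p = 0.0248), and both calls were lost without TGF-β replicate 1 (0.0788 and 0.102) or TGF-β replicate 2 (0.0792 and 0.0961); that with siHoxc8 was also lost without siHoxc8 replicate 1 (0.066) or 2 (0.121). Taf9 was at 0.63 to 1.41 FPKM throughout and Taf9b at 1.37 and 1.52 FPKM with MetR, 0.438 and 0.365 FPKM with siHoxc8, 0.353 and 0.477 FPKM with TGF-β, and 1.01 and 1.02 FPKM in control. Taf5, the scaffold of TFIID, rose by 1.06 with siHoxc8 (limma adjusted p = 0.00199) and 0.87 with MetR (limma adjusted p = 0.00352), under every alternative run.

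The 7 TAF names outside TFIID fall into Taf1a, Taf1b, Taf1c and Taf1d of the RNA polymerase I selectivity factor, Taf5l and Taf6l of the SAGA coactivator, and Taf15, an RNA-binding protein. Of these 4 rose and 1 fell with MetR, 2 rose with siHoxc8, and 1 rose and 1 fell with TGF-β. Over all genes tested, 34.8% rose and 19% fell with MetR, 28.1% rose with siHoxc8, and 10.3% rose and 28.6% fell with TGF-β. A group of 7 is too small to read a difference from these shares. Among the 7, Taf1c had 40.9 and 45.4 FPKM with MetR, 11.2 and 10.9 FPKM with siHoxc8, 14.1 and 13.2 FPKM with TGF-β, and 10.8 and 10.8 FPKM in control. MetR was far above the other groups. The change was 1.59 ± 0.10 with MetR relative to TGF-β (limma adjusted p = 6.73e-05) and -1.87 ± 0.10 with siHoxc8 relative to MetR (limma adjusted p = 1.72e-05), under every alternative run. Its rise of 0.31 with TGF-β (limma adjusted p = 0.0419) was lost with the replicate block (0.0621) and without any library of control (0.18 and 0.171), TGF-β (0.129 and 0.0678) or siHoxc8 (0.0888 and 0.0887).

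Taf1b had 5.82 and 6.44 FPKM with MetR, 3.28 and 3.19 FPKM with siHoxc8, 1.98 and 2.50 FPKM with TGF-β, and 2.91 and 2.85 FPKM in control, with MetR again highest, and rose by 1.14 with MetR (limma adjusted p = 0.000467). Taf1d, of the same factor, fell by 0.38 with MetR (limma adjusted p = 0.0167), lost without TGF-β replicate 2 (0.0747). Taf15 had 3.38 and 4.25 FPKM with MetR, 5.54 and 5.80 FPKM with siHoxc8, 2.73 and 3.62 FPKM with TGF-β, and 7.48 and 8.83 FPKM in control. Control was above all other libraries. It fell with TGF-β (-1.14 ± 0.16, limma adjusted p = 0.00162) under every alternative run, and rose by 0.68 with siHoxc8 relative to TGF-β (limma adjusted p = 0.0115), lost without TGF-β replicate 1 (0.0637), siHoxc8 replicate 1 (0.0556) or siHoxc8 replicate 2 (0.0676).

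Of 11 general factors tested, 4 rose with MetR, and 4 rose and 1 fell with siHoxc8. The rises, 36.4% in each, were near the 34.8% and 28.1% of all genes. With TGF-β relative to control 0 were called by limma, 0 were under an unadjusted p of 0.05, and their adjusted p ran from 0.207 to 0.912. Gtf2b, the TFIIB that bridges TFIID and polymerase, had 23.9 and 30.6 FPKM with MetR, 31.6 and 30.3 FPKM with siHoxc8, 19.0 and 22.7 FPKM with TGF-β, and 19.8 and 22.8 FPKM in control. It rose with siHoxc8 by 0.55 (limma adjusted p = 0.0192), lost after median ratio rescaling (0.0527) and without TGF-β replicate 1 (0.108), siHoxc8 replicate 1 (0.103) or siHoxc8 replicate 2 (0.0746). Gtf2e2, the small TFIIE subunit, had 11.6 and 16.2 FPKM with MetR, 5.22 and 6.25 FPKM with siHoxc8, 8.28 and 11.1 FPKM with TGF-β, and 8.63 and 7.60 FPKM in control. siHoxc8 was lowest. It was lower with siHoxc8 than with MetR by a change of -1.13 ± 0.19 (limma adjusted p = 0.00217) under every alternative run, while the fall of 0.66 relative to TGF-β (limma adjusted p = 0.0285) was lost without TGF-β replicate 2 (0.156), siHoxc8 replicate 1 (0.153) or siHoxc8 replicate 2 (0.0625). Gtf2h1, a TFIIH core subunit, had 27.1 and 39.0 FPKM with MetR, 23.0 and 20.8 FPKM with siHoxc8, 24.9 and 30.2 FPKM with TGF-β, and 24.8 and 25.4 FPKM in control. It passed no test against TGF-β or control, but was called lower with siHoxc8 than with MetR, also under all 3 other scalings. Gtf2a1 was at 4.19 to 6.69 FPKM, and its germ-cell paralog Gtf2a1l was at 0 in all but 1 library.

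Methionine restriction and the siRNA were compared directly, since both groups received TGF-β. Relative to MetR, 12 members were higher and 20 lower with siHoxc8, where 24.9% and 29.3% of all genes were. Among the members 12 rose with MetR, did not pass with siHoxc8 and were lower with siHoxc8 than with MetR, among them Med18, Med26, Med13l, Polr2f, Taf1c, Taf5l and Taf6l. The share of all genes with this joint pattern was not computed, so the count cannot be read as a trait of the members. Taf11 rose with MetR and fell with siHoxc8, and Polr2a and Taf12 did the reverse. The rise of Taf11 with MetR was not called under all 3 other scalings, and its fall with siHoxc8 was lost without single libraries. The rise of Polr2a with siHoxc8 was also lost without single libraries, while both calls of Taf12 held under every alternative run. Against control, 27 members were higher and 9 lower with MetR (28% and 29.3% of all genes), and 18 higher and 7 lower with siHoxc8 (21.7% and 27%). The split with siHoxc8 was 23 and 5 after median ratio rescaling (3101 and 3037 of all 12315 genes tested). It was 26 and 4 after quantile normalization (3204 and 3057) and 24 and 5 with the length trend removed (3300 and 3060). Its 18 became 9 without control replicate 2 and 11 without either siHoxc8 library, and its 7 became 0 without control replicate 1 or either siHoxc8 library and 1 without control replicate 2. The 9 lower with MetR became 5 without control replicate 2. In the direct contrast the 12 became 19 without MetR replicate 2 and 7 without siHoxc8 replicate 1, and the 20 became 11 without either siHoxc8 library.

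Of the 6 members that were not tested, Polr2h had 0.878 and 1.38 FPKM with MetR, 0.753 and 0.697 FPKM with siHoxc8, 0.156 and 0.386 FPKM with TGF-β, and 0.0706 and 0.214 FPKM in control. Med22 and Gtf2a1l were at most 0.0466 FPKM. Polr2h and Polr2i encode core subunits, so such levels describe what was counted at these symbols and not the protein. Polr2i passed the filter, but through 3 libraries: it had 0 and 183 reads with MetR, 91 and 56 with siHoxc8, 0 and 3 with TGF-β, and 2 and 0 in control, and passed no test. By RefSeq's gene coordinates, 34 members overlap another gene, among them Polr2b with Igfbp7, Taf7 with Slc25a2, Taf6 with Ap4m1 and Gtf2e2 with Smim18. The counting strand was not given in the sources used here, so reads of such neighbours may not be told apart.

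Genes of related complexes, from lists kept apart from the members, were read in the same comparisons, in which 34.8% of all genes rose and 19% fell with MetR, 28.1% rose and 15.7% fell with siHoxc8, and 10.3% rose and 28.6% fell with TGF-β. Of 18 genes for polymerase assembly, C-terminal domain phosphatases and TFIIS, 10 rose and 1 fell with MetR, 9 rose and 2 fell with siHoxc8, and 9 fell with TGF-β. Ctdsp2, a phosphatase of the small C-terminal domain family, had 49.0 and 35.1 FPKM with MetR, 47.6 and 47.4 FPKM with siHoxc8, 31.2 and 21.0 FPKM with TGF-β, and 67.6 and 68.5 FPKM in control. TGF-β was lowest and control highest. Of 19 subunits of RNA polymerases I and III not shared with Pol II, 9 rose with MetR, 10 rose and 1 fell with siHoxc8, and 3 rose and 1 fell with TGF-β. Of 15 SAGA genes without a TAF name, 6 rose and 2 fell with MetR, 5 rose and 2 fell with siHoxc8, and 1 rose and 4 fell with TGF-β, which are near the shares of all genes. Of the 5 other TFIIH genes, Cdk7, its kinase, fell by 0.61 with MetR (limma adjusted p = 0.00228) and 0.53 with siHoxc8 (limma adjusted p = 0.00526) and rose by 0.44 with TGF-β (limma adjusted p = 0.0138), and the helicase Ercc2 rose by 0.74 with MetR (limma adjusted p = 0.00153). Of 6 tested genes around the TATA-binding protein, 2 rose with MetR and 1 with siHoxc8, and Tbp itself had 8.42 and 8.18 FPKM with MetR, 10.8 and 11.0 FPKM with siHoxc8, 9.18 and 9.50 FPKM with TGF-β, and 10.8 and 10.8 FPKM in control.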

How the data were processed

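RNA-seq of NRK-49F cells was deposited as FPKM, computed by the authors, in 1 table of 8 libraries. Per the submitters' processing notes, featureCounts, Trim Galore, deepTools and Bowtie2 2.3.5.1 were used with build rn6, without stated roles; annotation and strand were not given in the sources used here. Groups came from the sample labels. The values, as log2(FPKM + 1), were fitted by limma 3.58.1 (R 4.3.3) (variance trend, all 8 libraries in 4 groups, 4 residual and 3.47 prior degrees of freedom, Benjamini-Hochberg adjustment within each of 6 comparisons, threshold 0.05). A gene entered if 2 or more libraries reached 1 FPKM (12315 genes). The procedure was tested on simulated data. Whole reads (all of 19435 genes above 0, within 0.02 of a read) and gene lengths were recovered from the steps of the FPKM values. The members and gene lists were chosen with earlier results of these data known. Named genes were 11 fixed members, up to 8 largest called rises and falls reaching 5 FPKM in their higher group and groups that did not overlap, members at 0, paralog pairs and up to 4 genes of each other list. Alternatives were another pseudocount (0.1), other filters, 3 other scalings, a replicate block, 2 groups alone, leaving out each library, and limma-voom.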

Additional observations from a re-analysis of the deposited data

How the results depend on the processing

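With 2 libraries a group the spread rests on few degrees of freedom, and after leaving out a library the lone one is assumed to vary like the other groups. Polr2h, Med22 and the paralogs near 0 were left out by the filter of 1 FPKM, and Polr2h had 1 to 19 reads per library. The limma-voom alternative on recovered reads was chosen after seeing the data. Members called higher with TGF-β numbered 8 after median ratio rescaling, 8 after quantile normalization, 9 with the length trend removed and 2 with those groups fitted alone, and members called lower numbered 2, 5 and 5 in the 3 scalings and 9 with no filter. With MetR relative to TGF-β 3 were lower with those groups alone. With siHoxc8 relative to TGF-β 20 were higher after median ratio rescaling, and 5, 5 and 5 were lower in the 3 scalings, 0 with no filter and 1 with limma-voom. Relative to control, siHoxc8 gave 33 higher with those groups alone and 4 lower after quantile normalization, and relative to MetR it gave 12 lower with those groups alone.

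Leaving out each library gave 0 to 6 higher and 2 to 23 lower with TGF-β, 28 to 46 and 4 to 7 with MetR relative to TGF-β, 10 to 35 and 0 to 6 with siHoxc8 relative to TGF-β, 19 to 38 and 5 to 11 with MetR relative to control, 9 to 27 and 0 to 9 with siHoxc8 relative to control, and 7 to 19 and 11 to 26 with siHoxc8 relative to MetR.

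The labels do not say that replicate numbers pair libraries. Deviations of same-numbered libraries correlated at 0.202 for TGF-β with MetR and at -0.0196 to 0.0239 for the other pairs of groups, so pairing was not assumed. The replicate block gave 1 higher and 15 lower with TGF-β, 38 and 6 with MetR and 30 and 2 with siHoxc8 relative to TGF-β, 28 and 9 with MetR and 18 and 7 with siHoxc8 relative to control, and 12 and 19 with siHoxc8 relative to MetR.

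Signs turned, with the cause not tested, as follows, in the order median ratio rescaling, quantile normalization and length trend where 3 are given. The member median with TGF-β was 0.0415, 0.1097 and 0.0622, and that of all genes 0.0096, 0.005 and 0.0139. The all-gene median was -0.004 with MetR (median ratio), -0.0106 and -0.0026 with siHoxc8 (median ratio and length trend), 0.005, 0.0309 and 0.04 with MetR relative to control (0.0391 at a mean of at least 5 FPKM, -0.0426 to 0.0251 without single libraries), and 0.0048, 0.0194 and 0.0272 with siHoxc8 relative to control. Gtf2b with TGF-β was 0.1921, 0.1255 and 0.1092 (-0.1551 to 0.09483 without single libraries), Med26 with siHoxc8 -0.04217, -0.1174 and -0.06101, and Taf7 with TGF-β 0.02294 after quantile normalization. Without single libraries Gtf2h1 ran from -0.01337 to 0.2578 with TGF-β and -0.01593 to 0.4928 with MetR, and Med12 from -0.3289 to 0.1615 with MetR and -0.3179 to 0.1724 with siHoxc8. Of 7098 member values under other settings, 250 had the other sign, 0 of them of a value called as reported, and 2 were called under the other setting. These were siHoxc8 relative to MetR for Polr2i without MetR replicate 1 (-1.205, limma adjusted p = 0.0439) and Taf4b without MetR replicate 2 (0.4612, limma adjusted p = 0.0423).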
